A study of Mus musculus with 8 samples.

Results

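The oligodendrocyte lineage was followed through 9 genes, each taken by name from the 24015 entries of the gene count table. They were the precursor genes *Pdgfra* and *Cspg4*, the lineage factors *Olig1* and *Olig2*, and the myelin genes *Mbp*, *Mag*, *Mog*, *Cnp* and *Cldn11*. All 9 had counts and all 9 entered the tests, although *Mag* reached 1 count per 1000000 counts (CPM) in only 1 library. Messenger RNA came from 8 mice at postnatal day 7 (P7), all on an inbred C57BL/6N background. The study deleted 1b, a conserved non-coding interval of *Scn1a*, which encodes the pore of the neuronal sodium channel NaV1.1, to ask what its loss does in mouse brain. The deletion was made with Cas9 in oocytes and bred as a single line, so it was present in every cell of a carrier. The genotypes were WT (2 males with 0 deleted alleles), 1b+/- (2 males and 2 females with 1 deleted allele each) and 1b-/- (2 females with 2), and each library was made from 1 animal. Sex and genotype therefore cannot be told apart between WT and 1b-/-.

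Oligodendrocytes make the myelin of the central nervous system and arise from migrating, dividing precursor cells. PDGFRA is the receptor through which platelet-derived growth factor drives those precursors to divide, and CSPG4 (NG2) is a proteoglycan of their surface. OLIG2 and OLIG1 are basic helix-loop-helix factors needed to specify the lineage and to mature it. As a cell stops dividing and wraps axons it turns on CNP, MBP and CLDN11, and later MAG and MOG. In rodent forebrain the first postnatal week lies before most myelin is laid down, so precursor genes are usually high and late myelin genes low at this age.

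Several members are also used outside the lineage. *Cldn11*, a tight junction protein of myelin, is also made by cells of the meninges, *Pdgfra* by fibroblasts of the meninges and vessels, and *Cspg4* by mural cells of vessels. The *Mbp* gene also gives golli transcripts, which neurons can make, and counts per gene do not separate them from classic *Mbp*. In RNA from whole tissue, fewer cells of a type and less RNA per cell cannot be told apart.

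Library depth was 2947770 to 20878772 counts, so a count of 0 allowed a level of up to 0.144 CPM at the greatest depth and up to 1.02 CPM at the lowest, by counting error alone. *Scn1a* was 40.4 and 45.1 CPM in WT, 15.7 to 26.6 CPM in 1b+/- and 2.0 and 3.18 CPM in 1b-/-, and the 3 ranges did not overlap. The labels name hippocampus and the methods of the study name forebrain. The hippocampal gene *Prox1* was 11.6 to 30.8 CPM over the 8 libraries. The 12 hippocampus markers summed to 327 to 523 CPM, 12 striatum markers to 309 to 480 CPM and 12 thalamus markers to 275 to 577 CPM. Which of the 2 names is right was not tested. Some libraries stood apart in markers of other tissues. In WT replicate 1, 12 of 12 genes of stratified epithelium and mesothelium were at their highest, against 12.9% of all tested genes. Their sum was 196 CPM there, 55.9 CPM in WT replicate 2 and 3.73 to 10.9 CPM in the others. In 1b+/- replicate 1, 15 of 32 midbrain and hindbrain genes were at their highest, against 15.3% of all tested genes. Their sum was 96.6 CPM there against 15.3 to 44.1 CPM elsewhere. The sum of choroid plexus markers was 35.6 CPM for 1b+/- replicate 2 and between 199 and 1067 CPM for the rest.

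Levels of different genes were compared as RPKM, which is CPM divided by the length of the exons in kilobases. By this scale *Cldn11* was the most abundant member, at a mean of 20.8 RPKM ± 8.71 (SD over the 8 libraries), followed by *Pdgfra* at 15.9 ± 2.27. *Olig2* stood at 7.90 RPKM ± 1.28, *Mog* at 5.95 ± 0.75 and *Olig1* at 5.84 ± 1.96. *Mbp* and *Cnp* had the same mean, 2.28 RPKM ± 0.31 and 2.28 RPKM ± 0.74, above *Cspg4* at 1.41 ± 0.30 and *Mag* at 0.216 ± 0.14. The 8 values of *Pdgfra* lay above all those of *Olig2*, those of *Olig1* above all those of *Mbp*, and those of *Cspg4* above all those of *Mag*. The other neighbours in this order overlapped. *Cldn11* exceeded *Pdgfra* in 7 of 8 libraries, with WT replicate 1 the exception, and *Mog* exceeded *Olig1* in 4 of 8. The order was the same when the longest annotated transcript was used as the length, although *Mbp*, whose exons sum to 8403 bases over 16 transcripts against 4797 bases in the longest, was then at 3.99 RPKM and *Cnp* at 2.85 RPKM.

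**Figure D1:**
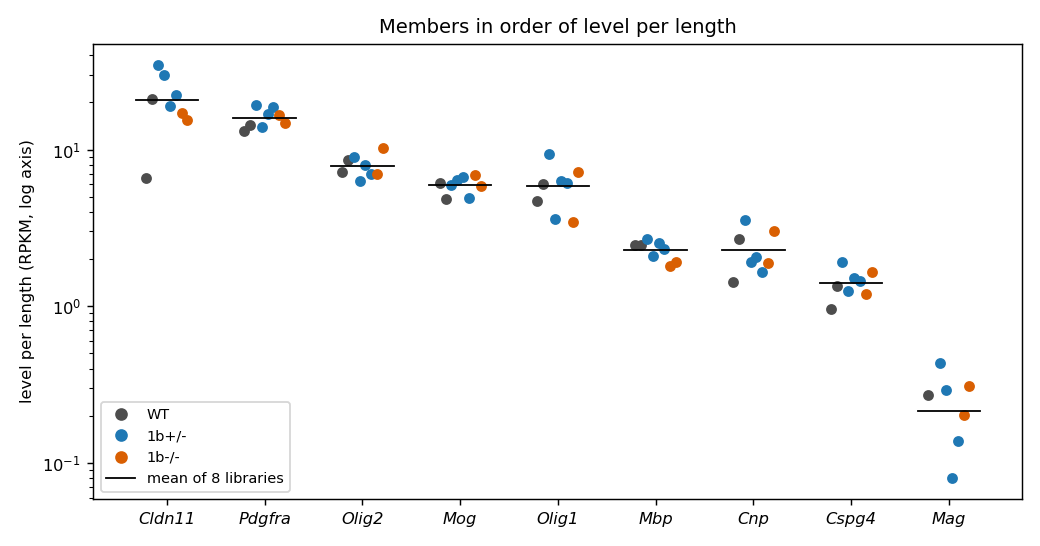
Level per length (RPKM, log axis) of each of the 9 members in the 8 libraries, with points coloured by genotype and a line at the mean, in falling order. *Cldn11* spreads from 6.54 to 34.8 RPKM with the lowest point from WT replicate 1, and *Mag* lies far under the rest (its 0 in WT replicate 2 cannot be drawn on a log axis).

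*Pdgfra* (chr5:75548316-75594229, plus strand, mm9) gave the most counts of the members, 375 to 2345 per library. Its level was 87.9 and 96.9 CPM in WT, 130, 93.2, 114 and 125 CPM in 1b+/- replicates 1 to 4, and 113 and 99.8 CPM in 1b-/-. Both WT values lay under both 1b-/- values, while the 1b+/- range spanned WT replicate 2 and the 1b-/- animals. *Cspg4* (chr9:56712911-56747677, plus strand) was 7.68 and 10.9 CPM in WT, 15.5, 10.1, 12.1 and 11.7 CPM in 1b+/-, and 9.66 and 13.3 CPM in 1b-/-. WT replicate 1 was the lowest and 1b+/- replicate 1 the highest library for both precursor genes, and the *Cspg4* ranges of all 3 genotypes overlapped. The difference between 1b+/- and WT was a log2 fold change of 0.32 for *Pdgfra* (95% confidence interval -0.02 to 0.66) and 0.44 for *Cspg4* (-0.11 to 0.98). Between 1b-/- and WT it was 0.20 (-0.19 to 0.60) for *Pdgfra* and 0.30 (-0.34 to 0.94) for *Cspg4*. Neither gene passed the test in any comparison. Without WT replicate 1, *Cspg4* moved to 0.19 in 1b+/- against WT (0.69 without WT replicate 2) and to 0.056 in 1b-/- against WT (0.56 without WT replicate 2), and *Pdgfra* moved to 0.25 and 0.13. With sex as a covariate *Pdgfra* in 1b-/- against WT was 0.11. That term takes the effect of sex from 1b+/- alone, the only genotype with both sexes, and assumes it equal in all genotypes.

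*Olig2* and *Olig1* lie 41092 bases apart on the plus strand of chromosome 16 (*Olig2* at chr16:91225795-91228922, *Olig1* at chr16:91270014-91272184). *Olig2* was 17.5 and 21.0 CPM in WT, 21.9, 15.3, 19.4 and 17 CPM in 1b+/-, and 17.1 and 24.8 CPM in 1b-/-. *Olig1* was 10.2 and 13 CPM in WT, 20.4, 7.77, 13.7 and 13.3 CPM in 1b+/-, and 7.46 and 15.5 CPM in 1b-/-. *Olig1* was highest in 1b+/- replicate 1 and lowest in 1b-/- replicate 1, and *Olig2* was highest in 1b-/- replicate 2 and lowest in 1b+/- replicate 2. The groups overlapped for both genes. The ratio of *Olig1* to *Olig2* in RPKM ran from 0.489 in 1b-/- replicate 1 to 1.04 in 1b+/- replicate 1. The widest interval for *Olig1*, 1b-/- against WT, was -1.0 to 0.88 on the log2 scale.

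Among the myelin genes, *Mbp*, the major protein that compacts the myelin sheath, varied least within a genotype. It was 20.6 and 20.7 CPM in WT, 22.4, 17.6, 21.3 and 19.3 CPM in 1b+/-, and 15.2 and 16 CPM in 1b-/-. Both 1b-/- values lay under all 6 others. The difference from WT was -0.41 on the log2 scale (SE 0.20, interval -0.85 to 0.04, unadjusted p = 0.0703, adjusted p = 1), and that from 1b+/- was -0.38 (SE 0.18, interval -0.77 to 0.01, unadjusted p = 0.0572, adjusted p = 0.999982). The adjusted values did not pass the threshold. Both 1b-/- mice were female. Among females alone, 1b-/- replicates against 1b+/- replicates 3 and 4, the difference was -0.39 with an adjusted p of 0.999957. It stayed between -0.44 and -0.32 in all 18 alternatives of that comparison, and between -0.44 and -0.37 in all 17 against WT.

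*Cnp*, an enzyme of the myelin cytoplasm that appears early in differentiation (chr11:100436218-100453043, plus strand), was 5.20 and 9.80 CPM in WT, 13, 6.96, 7.46 and 6.00 CPM in 1b+/-, and 6.85 and 11 CPM in 1b-/-. Its groups overlapped, and the extremes were again WT replicate 1 and 1b+/- replicate 1. The locus overlaps *Dnajc7* on the opposite strand, at 243 to 304 CPM, and the counting is not stated to have used strand. How much of *Cnp* came from *Dnajc7* was not tested. *Mog*, a late glycoprotein of the outer myelin surface (chr17:37147691-37160343, minus strand), was 10.3 and 8.27 CPM in WT, 10.1, 10.8, 11.4 and 8.34 CPM in 1b+/-, and 11.7 and 10.01 CPM in 1b-/-. It had the smallest spread of the 9 members, with a coefficient of variation of 12.6% over the 8 libraries and overlapping groups. *Mag*, an adhesion protein of the inner myelin wrap (chr7:31684202-31699851, minus strand), had 43 counts over all libraries. These were 8 and 0 counts in WT, 16, 7, 4 and 1 in 1b+/-, and 4 and 3 in 1b-/-. *Mag* entered the tests only through 1b+/- replicate 1, its highest library, and these counts do not show a difference between genotypes. Per length, *Mog* exceeded *Mag*, another gene of late myelin, by 13.6 to 84.2 times in the 7 libraries with a *Mag* count. A 7SK entry lies on the opposite strand within *Mog*, and its part in the *Mog* counts was not tested. Which cells gave the *Mog* counts was not tested either.

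*Cldn11* (chr3:31048868-31063246, plus strand) varied most among the members with over 100 counts in total. It was 12.1 and 38.9 CPM in WT, 64.2, 55.2, 34.8 and 41.0 CPM in 1b+/-, and 31.6 and 28.5 CPM in 1b-/-. WT replicate 1 was 5.32 times lower than 1b+/- replicate 1, WT replicate 2 lay inside the 1b+/- range, and both 1b-/- values lay just under that range. In 1b+/- the gene was 0.97 higher than in WT on the log2 scale (SE 0.39, interval 0.13 to 1.82, unadjusted p = 0.0274, adjusted p = 0.999935), and in 1b-/- it was 0.70 lower than in 1b+/- (log2 fold change -0.70, interval -1.54 to 0.14, adjusted p = 0.999982). The first value rested on WT replicate 1. Without that animal the difference between 1b+/- and WT was 0.33 (0.17 with 1b+/- replicate 1 also left out), and without WT replicate 2 it was 2.02 with an adjusted p of 0.0819. The difference of 1b-/- from WT was 0.27 and turned to -0.37 without WT replicate 1, while it was 1.32 without WT replicate 2. With sex as a covariate it was 0.94, with the effect of sex again taken from 1b+/- alone. For 1b-/- against 1b+/- the difference of -0.70 shrank to -0.31 among females alone and to -0.32 with sex as a covariate. Among males alone, 1b+/- against WT gave 1.26 with an adjusted p of 0.768.

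**Figure D2:**
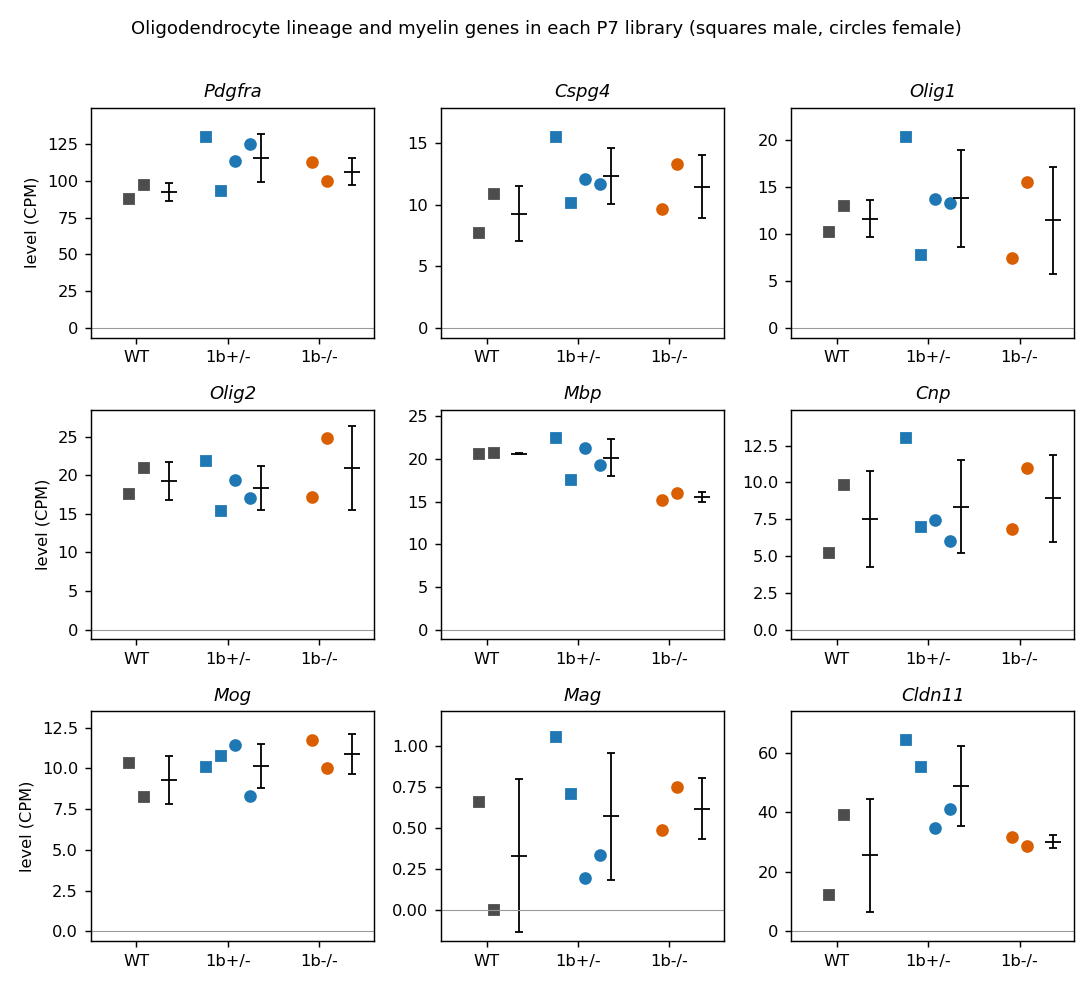
Level (CPM) of each member in the 8 libraries by genotype, with squares for males, circles for females and the mean ± SD of each genotype beside its points. *Mbp* in the 2 1b-/- animals (15.2 and 16 CPM) lies under the other 6 libraries, and *Cldn11* in WT runs from 12.1 to 38.9 CPM.

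Markers of the meninges were among those that moved with *Cldn11*. All 18 meningeal and fibroblast genes were detected. Their sum was 793 and 1354 CPM in WT and 1445 and 992 CPM in 1b-/-. In 1b+/- replicates 1 to 4 it was 2587, 1538, 1191 and 1361 CPM. WT replicate 1 was the lowest library for 16 of the 18 genes and 1b+/- replicate 1 the highest for 12, against 11.3% and 15.3% of all tested genes. The defining collagen *Col1a2* was 92.6 CPM in WT replicate 1 and 539 CPM in 1b+/- replicate 1, and *Col1a1* was 50.6 and 380 CPM in the same animals. In 1b+/- against WT, 17 of the 18 genes were higher (median log2 fold change 0.74), against 52.1% of all tested genes. By edgeR's quasi-likelihood test 0 passed the adjusted threshold, and 6 had an unadjusted p under 0.05, against 4.34% of all tested genes. All 18 genes were lower in 1b-/- against 1b+/-, where *Cldn11* was -0.70, with a median of -0.42, and 0 passed. The sums of these genotypes overlapped, and 1b+/- replicate 1 stood above the other 1b+/- animals. Of all tested genes 49.0% were higher there. The fall was not particular to the meninges, since all 10 astrocyte markers (median -0.25) and 8 of 10 microglial markers (median -0.24) were lower as well. The part of meningeal content in *Cldn11* was not tested.

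**Figure D3:**
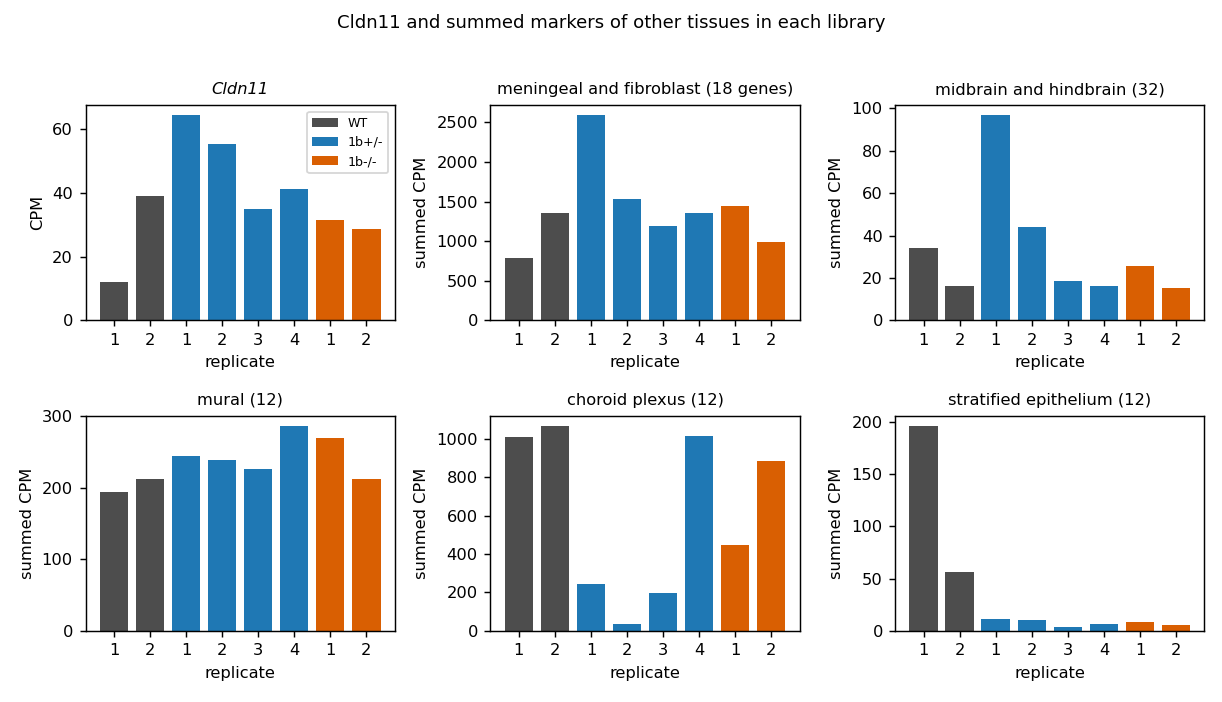
*Cldn11* (CPM) and the summed CPM of 5 marker lists in each library, with bars from 0 and coloured by genotype. *Cldn11* and the meningeal sum are both lowest in WT replicate 1 (12.1 and 793 CPM) and highest in 1b+/- replicate 1 (64.2 and 2587 CPM), whereas epithelial genes peak in WT replicate 1.

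The same 2 libraries were extremes for other members. 1b+/- replicate 1 was the highest library for 7 of the 9 members, against 15.3% of all tested genes. WT replicate 1 was the lowest for 4, against 11.3%. In 1b+/- replicate 1, 10 of 12 telencephalon markers were at their lowest, against 15.1% of all tested genes. Their sum was 2559 CPM there against 3118 to 4677 CPM elsewhere. Mural markers, which bear on *Cspg4*, summed to 194 and 213 CPM in WT, 226 to 287 CPM in 1b+/-, and 213 and 269 CPM in 1b-/-, with all 12 detected. Endothelial markers summed to 331 to 489 CPM, microglial to 56.8 to 86.3, astrocytic to 914 to 1260 and neuronal to 6080 to 7341 over the 8 libraries. Like *Cldn11* and the meningeal sum, the microglial sum was lowest in WT replicate 1 and highest in 1b+/- replicate 1. The astrocytic sum was 914 and 1145 CPM in WT, 1134 to 1260 CPM in 1b+/-, and 994 and 1019 CPM in 1b-/-. Schwann cells, which make the myelin of peripheral nerve, were traced through *Prx*, at 1.75 to 3.00 CPM. The Schwann list summed to 95 to 111 CPM, most of it from *Drp2* and *Pou3f1*, which are also expressed in neurons. This sum does not show the other genes of the list. Over its 8 tested genes, log2 fold changes ran from -0.70 to 6.16 in 1b+/- against WT, with 6 higher and 2 lower. In 1b-/- against 1b+/- they ran from -3.57 to 0.49, with 3 higher and 5 lower, and 0 passed in either comparison. The parts of these contents in the members' values were not tested.

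Precursor and myelin members were then set against each other within each library. The summed level was 14 to 21.2 RPKM for *Pdgfra* and *Cspg4*, of which *Pdgfra* gave 90.0% to 93.3%. It was 16.8 to 47.4 RPKM for the 5 myelin genes, and *Cldn11* gave 39.0% of it in WT replicate 1 and 58.2% to 73.8% in the others. The myelin sum exceeded the precursor sum in all 8 libraries, by 1.20 to 2.69 times. The log2 ratio was 0.26 and 0.98 in WT, 1.16, 1.43, 0.72 and 0.64 in 1b+/-, and 0.64 and 0.69 in 1b-/-, so the genotypes overlapped. This direction depended on *Cldn11* and on the scale, since sums of CPM and means of log2 RPKM also gave ratios under 0 in the mean of each genotype. Without *Cldn11* the ratio was below 0 in all 8 libraries, with means of -0.55 ± 0.14 (SD, n = 2) in WT, -0.77 ± 0.27 (n = 4) in 1b+/- and -0.65 ± 0.12 (n = 2) in 1b-/-. *Mog* was the largest part of this smaller sum in every library, at 4.86 to 6.90 RPKM of 8.99 to 12.6 RPKM.

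**Figure D4:**
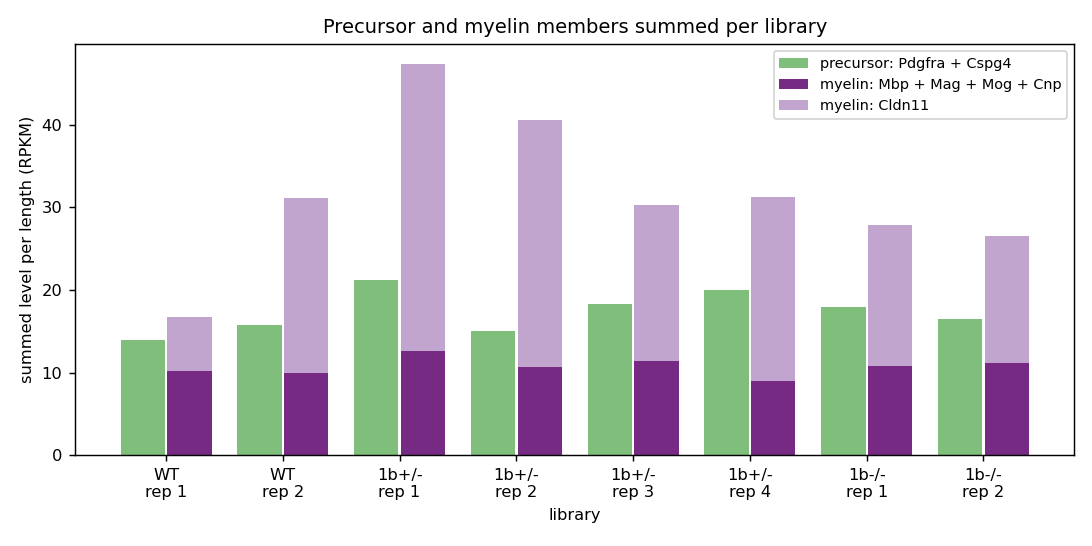
Summed level per length (RPKM) of the precursor members and of the myelin members in each library, with *Cldn11* stacked on the other 4 myelin genes and bars from 0. The 4 myelin genes other than *Cldn11* sum to 8.99 to 12.6 RPKM, of which *Mog* gives 4.86 to 6.90, and lie under the precursor bar in every library.

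Set against the precursor sum alone, *Mbp* gave log2 ratios of -2.52 and -2.68 in WT, -2.99, -2.85, -2.86 and -3.12 in 1b+/-, and -3.31 and -3.11 in 1b-/-. Both WT values lay above the other 6, and the 1b+/- and 1b-/- ranges overlapped. *Mbp* itself differed by a log2 of -0.03 between 1b+/- and WT, where *Pdgfra*, most of the precursor sum, differed by 0.32. The means were -2.60 ± 0.11 (SD, n = 2), -2.95 ± 0.13 (n = 4) and -3.21 ± 0.14 (n = 2). *Pdgfra* was 5.33 and 5.85 times as abundant as *Mbp* per length in WT, 6.62 to 8.06 times in 1b+/-, and 9.26 and 7.78 times in 1b-/-. These multiples depend on the length used, since with the longest transcripts the means over the 8 libraries were 16.3 RPKM for *Pdgfra* and 3.99 RPKM for *Mbp*. For *Mog* and *Cnp* the same ratios overlapped across the genotypes, with means of -1.45, -1.64 and -1.43 for *Mog* and -2.92, -3.08 and -2.85 for *Cnp* in WT, 1b+/- and 1b-/-. The *Cldn11* ratio was -1.10 and 0.42 in WT, with means of 0.47 in 1b+/- and -0.08 in 1b-/-. Its mean was thus higher in 1b+/- than in WT, unlike that of *Mbp*. These ratios are descriptions of a few animals, and no test was made of them.

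Genotype was tested across all 15588 genes with at least 1 CPM in 1 library or more. In 1b+/- against WT, 0 of 9 members passed an adjusted p of 0.05, where 13 genes (0.0834%) did. Of the 9 members, 0 also passed with 1b-/- set against either other genotype, where 1 gene (0.00642% in each comparison) did. At an unadjusted p under 0.05 by edgeR's quasi-likelihood test there was 1 member (*Cldn11*, 1b+/- against WT) in the first comparison and 0 in the others, where 4.34%, 1.64% and 1.23% of all tested genes had such a p in the 3 comparisons. The counts were 0 after adjustment with DESeq2 and with the likelihood ratio test as well. Unadjusted, DESeq2 gave *Cldn11* in both 1b+/- against WT and 1b-/- against 1b+/-, and the likelihood ratio test gave *Cldn11* in 1b+/- against WT alone. The median log2 fold change of the members was 0.27, 0.23 and -0.12 in the 3 comparisons, against 0.01, -0.01 and -0.00 over all genes tested. Comparisons that share animals are not independent. In simulated data the test of 1b-/- against WT recovered 136 of 300 genes changed by 1 on the log2 scale. A change of that size in a member could therefore go uncalled.

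Ranges of the groups did not overlap for 0 members in 1b+/- against WT, where 12.3% of all tested genes did not. In 1b-/- against WT they did not overlap for 2 members (22.2%), *Pdgfra* and *Mbp*, close to the 23.6% of all tested genes. In 1b-/- against 1b+/- the 2 members without overlap were *Mbp* and *Cldn11*, both lower in 1b-/-, where 7.39% of all tested genes had none. Exact two-sided permutation of single members could not reach 0.05 in this design: the smallest p was 0.133 for 2 against 4 animals and 0.333 for 2 against 2. *Mbp* and *Cldn11* reached that smallest exact p of 0.133 in 1b-/- against 1b+/-.

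**Figure D5:**
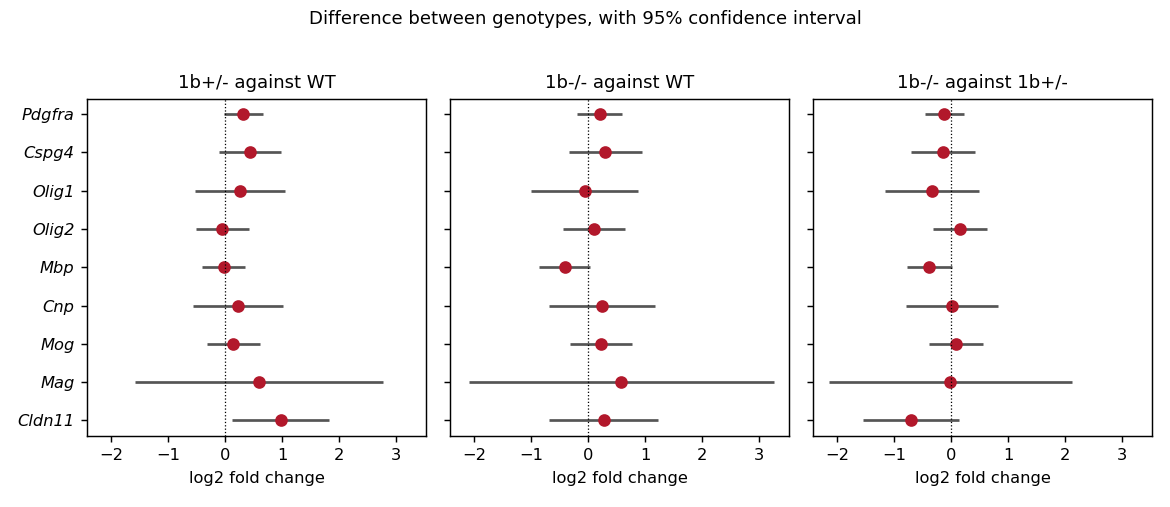
Log2 fold change of each member (point) with its 95% confidence interval (line) in the 3 comparisons, from the fit over all 8 libraries, with a dotted line at 0. The interval of *Cldn11* in 1b+/- against WT (0.13 to 1.82) leaves out 0 before adjustment, those of *Mbp* in both 1b-/- comparisons end at 0.04 and 0.01, and *Mag* has the widest intervals.

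Other genes of the lineage were taken from lists. Of 26 other myelin genes, 22 had at least 1 CPM in a library. The mature genes *Mobp*, *Opalin* and *Fa2h* stayed under 1 CPM in every library, with at most 13 counts in any of them. Among the most abundant other myelin genes per length were *Mal2* (12.8 RPKM), *Mal* (6.31), *Omg* (5.67), *Tspan2* (4.94), *Cryab* (4.64), *Trf* (3.16) and *Plekhb1* (2.58), several of which neurons or astrocytes also express.

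*Mal*, a membrane protein of myelin and of epithelia, was the only gene of the lineage lists to pass the test. It was 95.1 and 17.8 CPM in WT against 3.44 to 6.13 CPM in 1b+/- and 4.04 and 4.25 CPM in 1b-/-. The log2 fold change of 1b+/- against WT was -3.59 (adjusted p = 0.0243), and that of 1b-/- against WT was -3.79 and did not pass (adjusted p = 0.303). The epithelial list moved with it. In 1b+/- against WT, 9 of its 12 genes passed as lower, with a median of -4.33 over the 12, where 0.0834% of all tested genes passed. This list was chosen with earlier results of these data known, so its fall is not independent support. The calls of *Mal* and of these 9 genes were lost without WT replicate 1, without 1b+/- replicate 3, with sex as a covariate and among males alone, where 0 of all tested genes passed. Both *Mal* and these genes were highest in WT replicate 1, and the part of epithelial content in *Mal* was not tested.

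Among 16 other transcription factors of the lineage, 0 passed the test in any comparison. *Zeb2* (106 RPKM), *Yy1* (33.5) and *Sox5* (12.9) were among the most abundant per length, and all of them also act in neurons or neural progenitors. *Sox10*, which is restricted to the oligodendrocyte lineage within the brain and activates myelin genes, was 4.38 and 7.35 CPM in WT, 8.64, 12.8, 9.35 and 9.01 CPM in 1b+/-, and 3.55 and 8.25 CPM in 1b-/-. Every 1b+/- value lay above the other 4 animals. Of all tested genes, 12.3% had no overlap in 1b+/- against WT and 7.39% had none in 1b-/- against 1b+/-. The log2 difference was 0.80 from WT (unadjusted p = 0.0385, adjusted p = 0.999935) and -0.84 for 1b-/- against 1b+/- (unadjusted p = 0.0396, adjusted p = 0.999982), so it did not pass. *Gjc3* (2.13), *Aspa* (2.05) and the precursor gene *Matn4* (1.99) also had positive log2 differences of 1b+/- from WT at an unadjusted p under 0.05, and 0 of them passed after adjustment. These genes were picked for their direction. Over the whole lists, 6 of the 16 factors were higher and 10 lower in 1b+/- than in WT (median log2 fold change -0.11), as were 12 and 10 of the 22 other myelin genes (0.04) and 7 and 7 of the 14 precursor genes (0.05).

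Of 15 other precursor genes, 14 were tested and 0 passed, with medians of 0.05 for 1b+/- against WT, -0.08 for 1b-/- against WT and -0.19 for 1b-/- against 1b+/-. *Ptprz1* (72.1 RPKM), *Vcan* (39.8), *Cdo1* (30.0) and *Lhfpl3* (29.9) led the list, all of which other neural cells can also make. *Gpr17*, a receptor of cells committed to differentiate, was 4.44 to 15.3 CPM, highest in 1b+/- replicate 1. All 14 premyelinating genes were tested and 0 passed, with medians between -0.04 and 0.02. The most abundant were *Fyn* (84.1 RPKM), *Rap2a* (32.6), *Opcml* (21.6) and *Sirt2* (14.5), which neurons share. *Bcas1*, which marks newly formed oligodendrocytes, was lowest in 1b+/- replicate 2 (1.61 CPM) and highest in 1b+/- replicate 1 (9.36 CPM), with the other 6 libraries at 2.14 to 4.75 CPM. *Enpp6*, another marker of that stage, had 0 to 9 counts per library.

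The partners of PDGFRA had lower mean levels per length than *Pdgfra* itself (15.9 RPKM). The receptor *Pdgfrb* of mural cells was 5.81 RPKM and the ligands *Pdgfc*, *Pdgfb* and *Pdgfa* were 3.34, 2.22 and 2.13 RPKM. *Pdgfa*, the ligand that drives precursor division, differed between genotypes by a log2 of 0.08, 0.29 and 0.21 in the 3 comparisons, and 0 of these 5 genes passed. Of 20 signals and inhibitors of the lineage, 19 were tested and 0 passed, with *Id2* (161 RPKM), *Id4* (120), *Thra* (116) and *Igf1r* (45.9) at the top. *Igf1*, a growth factor for the lineage, had the lowest adjusted p of these lists after *Mal*, 0.385 for a log2 difference of 1.5 between 1b+/- and WT. Of 12 axonal genes of the node and its flanks, 11 were tested and 0 passed, with medians of -0.07, -0.05 and 0.05. *Cntn2*, *Cadm4*, *Cadm3* and *Cadm2* were 43.2, 42.9, 41.9 and 33.1 RPKM.

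The members did not vary as 1 block across the 8 libraries. Pearson correlations of log2(CPM + 1), given as descriptions over libraries that also differ in depth and in marker content, were 0.78 between *Olig1* and *Olig2* and 0.69 between *Pdgfra* and *Cspg4*. *Cnp* correlated with *Cspg4* at 0.83 and with *Olig2* at 0.82. Pairs of myelin genes had a median of 0.08 and ran from -0.33 to 0.55. *Mog* correlated negatively with every member but *Mag* (0.39), down to -0.33 with *Mbp* and -0.40 with *Olig1*. Among 9585 other genes with a mean of at least 10 CPM (9586 for *Cnp*, which like *Mag* lies below that level itself), those most like *Cldn11* were *Bmp7* (r = 0.97), *N6amt2* (0.95), *Gjb6* (0.95), *Sned1* (0.94) and *Egflam* (0.94). Those most like *Pdgfra* included *Lhfpl2* (0.94), the microglial gene *C1qb* (0.94), *Itga9* (0.93) and *Stab1* (0.92). Those most like *Mbp* were *Smpdl3a* (0.97), *Tmtc4* (0.93), *Rmnd5b* (0.93), *Txndc12* (0.91) and *Ccser1* (0.90).

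The closest genes to the other members were of mixed function. For *Cspg4* they included *Edc4* (0.96), *Man2c1* (0.95), *Unc119b* (0.94) and *Grn* (0.94). For *Olig1* they were *Med16* (0.98), *Clstn3* (0.97), *Sgsm3* (0.97), *Fbxo44* (0.97) and *Dis3l2* (0.97), and for *Olig2* they were *Pla2g15* (0.98), *Kifc2* (0.98), *B630019K06Rik* (0.98), *Rwdd2b* (0.97) and *Urm1* (0.97). For *Mog* they included *Samd9l* (0.95), *Eml5* (0.95), *Zfyve16* (0.94) and *Tmem167* (0.94), and for *Cnp* they were *Ehbp1l1* (0.95), *Zbtb4* (0.95), *Pbx3* (0.94), *Acox3* (0.94) and *Crtc1* (0.94). *Mag*, with 43 counts, is left out of this comparison. None of the 40 closest genes is another member, and each r is among the highest of its candidates over only 8 libraries.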

How the data were processed

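Stranded poly(A) libraries were read from a single end. The authors aligned reads to mm9 with STAR 2.7.2 and counted them per gene with featureCounts, and the deposited values are raw counts per gene symbol. Annotation release, strand setting and handling of reads with several matches are not given in the sources used here. Of 24013 distinct symbols, 20920 were in GENCODE (mm9), which gave positions and exon lengths.

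Genotype came from the labels. Replicates were numbered in order of deposition. Counts were tested in R 4.3.3 with the quasi-likelihood test of edgeR 4.0.16 (TMM, genotype only, all 8 libraries, genes with at least 1 CPM in 1 library or more), with Benjamini-Hochberg adjustment over all genes at 0.05. CPM values are TMM-scaled. RPKM divides CPM by the exon union. Other settings were the filter (filterByExpr, or none), the scaling (RLE, upper quartile), the test (likelihood ratio, DESeq2 1.42.0), a term for sex, fits within 2 groups or 1 sex, and omission of each library. Omission of WT replicate 1 together with 1b+/- replicate 1, and of *Cldn11* from the myelin sum, was chosen after seeing the data. The test of 1b-/- against WT was checked on simulated data. It recovered 136 of 300 changes of 1 on the log2 scale and 293 of 300 changes of 2.

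The members and gene lists were chosen with earlier results of these data known. Named by rule were all members, every list gene past the threshold, the 4 genes of highest RPKM per lineage list (8 for myelin), 2 defining markers per tissue list and the 5 genes most like each member. *Sox10*, *Gpr17*, *Bcas1*, *Enpp6*, *Igf1*, *Gjc3*, *Aspa*, *Matn4*, *Mobp*, *Opalin*, *Fa2h*, *Drp2* and *Pou3f1* were named after their values were seen. Some genes that the rule names are not reported here.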

Additional observations from a re-analysis of the deposited data

How the results depend on the processing

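No member passed the adjusted threshold in the 3 comparisons or in any of the 53 alternative fits, where the lowest adjusted p of a member was 0.0819 (*Cldn11*, 1b+/- against WT, without WT replicate 2). No paired analysis was possible because replicate numbers follow the order of deposition and pair no animals. Of 466 alternative log2 fold changes, 428 kept their direction and 38 reversed, all of them for values that were not called. The cause was not tested. Fits that leave 1 animal in a group assume that it varies like the others.

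With whole-table settings, *Mbp* in 1b+/- against WT was 0.0049 with upper quartile scaling and *Olig1* in 1b-/- against WT was 0.013 with sex as a covariate. *Mag* in 1b-/- against 1b+/- was 0.00072 without a filter, 0.0069 by the likelihood ratio test, 0.039 by DESeq2 and 1.37 with sex as a covariate. Leaving out libraries (each in turn, or WT replicate 1 with 1b+/- replicate 1) gave these ranges. In 1b+/- against WT they were -0.18 to 0.48 for *Olig1*, -0.28 to 0.082 for *Olig2*, -0.087 to 0.038 for *Mbp*, -0.00060 to 0.34 for *Mog* and -0.49 to 0.72 for *Cnp*. In 1b-/- against WT they were -0.63 to 0.42 for *Olig1*, -0.16 to 0.37 for *Olig2*, -0.17 to 0.74 for *Cnp* and -0.37 to 1.32 for *Cldn11*. In 1b-/- against 1b+/- they were -0.36 to 0.092 for *Cspg4*, -0.90 to 0.16 for *Olig1*, -0.12 to 0.42 for *Olig2*, -0.39 to 0.33 for *Mag*, -0.047 to 0.18 for *Mog* and -0.33 to 0.36 for *Cnp*. Against WT, *Mag* ran from -0.15 to 5.55 in 1b+/- and from -0.16 to 5.54 in 1b-/-. The upper ends set it against WT replicate 2 alone, with 0 counts, and depend on the prior count.

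The log2 ratio of myelin to precursor members turned negative with CPM sums (-0.72 in WT, -0.55 in 1b+/- and -0.83 in 1b-/-), with the mean of log2 RPKM (-0.83, -0.77 and -0.79) and without *Cldn11* (-0.55, -0.77 and -0.65).

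The number of genes called in 1b+/- against WT was 13, and 57 without a filter, 64 by the likelihood ratio test, 24 by DESeq2, 0 with sex as a covariate and 0 in males alone. It was 0 to 30 with 1 library left out, with 0 without WT replicate 1 or 1b+/- replicate 3, 4 without 1b+/- replicate 4, 7 without 1b+/- replicate 1 and 30 without WT replicate 2. In 1b-/- against WT it was 1, and 33 without a filter, 23 by the likelihood ratio test, 13 by DESeq2, 15 with the 2 groups alone, 16 without WT replicate 2 and 2 without 1b+/- replicate 1. In 1b-/- against 1b+/- it was 1, and 0 without either 1b-/- replicate. Low depth, 2947770 counts in 1b+/- replicate 4, limits *Mag*, *Enpp6* and the mature myelin genes most.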
